A study of Mus musculus with 9 samples.

Results

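The genes described here are 10 regulators of TNF and NF-kB signaling. They were chosen by name, with earlier results of these data known, and not by a threshold on their values. They include the cytokine gene Tnf, the receptor genes Tnfrsf1a, Tnfrsf1b and Tnfrsf11a, and the NF-kB subunit genes Nfkb1, Nfkb2 and Rela. The others are Nfkbia and Nfkbiz, which encode proteins of the IkB family, and Tnfaip3, which encodes the enzyme A20. All 10 are among the 23238 gene symbols listed in the count tables, and all 10 are among the 10107 genes that passed the filter on low counts and were tested. They were measured in sorted monocytes of a mouse model of neuromyelitis optica (NMO), in which IgG of NMO patients and human complement were injected into the striatum on one side. Each of the groups had 3 libraries, and each library came from a pool of 5 female wild-type C57BL/6N mice on day 1. Nor_Bl_mono stands for monocytes from the blood of untreated mice, NMO_Bl_mono for those from the blood of injected mice, and NMO_Br_mono for those from the brain of injected mice. Cells were sorted as positive for CD45 and CD11b, high for Ly6C and negative for P2ry12 and Ly6G. Blood was separated on a density gradient, whereas brain was dissociated with an enzyme first, so tissue of origin and preparation cannot be told apart in any comparison of brain with blood. No brain monocytes of untreated mice are among the groups.

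TNF binds its receptors on the cell surface, and adaptor proteins recruited there activate the IkB kinase complex. That kinase marks IkBa, the product of Nfkbia, for degradation, which frees dimers such as p50 with RelA to enter the nucleus and switch on cytokine, chemokine and survival genes. Nfkbia, Nfkbiz and Tnfaip3 are themselves well-known NF-kB target genes, and in monocytes their products shape how long the response lasts.

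The members called in the brain monocytes were Tnfaip3, Nfkbiz and Nfkbia, all of them lower. Tnfaip3 was 7.80-fold lower in mean level in NMO_Br_mono than in NMO_Bl_mono, Nfkbiz was 4.36-fold lower and Nfkbia was 2.86-fold lower. These 3 genes passed the unadjusted threshold, which asks for p under 0.05 and at least a 1.2-fold difference, at which 3.84% of all genes were called lower and 1.48% higher, and no member passed an adjusted p under 0.05. The brain libraries lay below all blood libraries for Tnfaip3, whereas for Nfkbia and Nfkbiz they overlapped with blood. The call was lost under 5 of 21 alternative settings for Nfkbia, under 10 of 21 for Nfkbiz and under 0 of 21 for Tnfaip3. None of the subunit or receptor genes, nor Tnf itself, passed either threshold in any comparison. Between the blood monocytes of NMO and untreated mice no member passed.

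Promoter windows from RefSeq (build GRCm38.p6, 250 bases before to 50 bases after an annotated start) were found for 8 of the 10 members, Nfkb1 and Nfkbiz being the others. The NF-kB consensus motif, searched on both strands, occurred in the windows of 3 of these 8 genes, Nfkb2, Nfkbia and Tnfaip3, against 9.55% of the 27025 genes in the table and 8.46% of its 32851 windows. The windows of Tnfaip3 and Nfkbia are shown because these genes carry both the motif and the lower counts in brain, with the matches in capitals. Nfkb2 also holds the motif and was not called (log2 fold change 0.46 in NMO_Br_mono against NMO_Bl_mono), and the called gene Nfkbiz had no window. A link between motif and level was not tested.

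Tnfaip3, chr10:19015361-19015660, minus strand, the upstream of its 2 annotated starts: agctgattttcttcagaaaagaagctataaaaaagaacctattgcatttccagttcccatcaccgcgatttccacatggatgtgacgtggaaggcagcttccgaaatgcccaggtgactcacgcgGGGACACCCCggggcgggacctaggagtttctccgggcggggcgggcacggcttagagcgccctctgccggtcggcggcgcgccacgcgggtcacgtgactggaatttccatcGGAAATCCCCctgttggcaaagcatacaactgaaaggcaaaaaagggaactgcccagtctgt
Nfkbia, chr12:55492598-55492897, minus strand: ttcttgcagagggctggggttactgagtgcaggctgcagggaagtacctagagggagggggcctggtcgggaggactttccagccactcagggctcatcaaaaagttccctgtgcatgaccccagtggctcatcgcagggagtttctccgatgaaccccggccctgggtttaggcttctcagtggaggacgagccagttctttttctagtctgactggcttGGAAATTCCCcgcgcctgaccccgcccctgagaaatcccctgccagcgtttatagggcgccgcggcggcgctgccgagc

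In Tnfaip3 the matches begin 125 and 12 bases before the annotated start, and in Nfkbia the match begins 29 bases before it. The window of the other Tnfaip3 start holds no match, nor do the windows of Tnf, Rela, Tnfrsf1a, Tnfrsf1b and Tnfrsf11a, which says only that these letters are not in 300 bases. Nfkb2 has 3 annotated starts, and each of its windows holds at least 1 match. Its windows 2 and 3 overlap, and the only match in window 3 is also a match in window 2. A match is a description of the sequence and was not set against any measurement of binding.

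The libraries were 3ʹ tag libraries, so a count stands for a read near the end of a transcript, and levels are given as CPM, the count scaled to the library size with TMM factors. Total counts ranged from 7582571 to 10416076 per library, and 3 counts, taken as the floor of detection, correspond to between 0.273 and 0.432 CPM. The ribosomal RNA entry Rn45s held between 28.4% and 43.6% of the counts. NMO_Bl_mono replicate 3 stood apart from the other libraries. It had 4567 genes with a count against up to 11556 elsewhere, and 22.3% of the 2522 genes that reached 50 CPM in the remaining pair of NMO_Bl_mono libraries were at or under the floor in it. Of the members, 4 were at 0 in that library, namely Tnf, Tnfrsf11a, Nfkb2 and Rela. Nor_Bl_mono replicate 3 had 7495 genes with a count, a share of 1.94% at the floor by the same measure, and 2 members at 0, Tnf and Nfkb1. Among the brain libraries NMO_Br_mono replicate 2 had 6473 genes with a count and a share of 8.26%, with no member at 0. Results are also given without both of these blood libraries, a choice made after seeing the data. Since Tnf, Nfkbia and Nfkbiz were lowest in just these libraries, leaving them out fixes the direction of the change, and the values are descriptions with no test. Without NMO_Br_mono replicate 2 the log2 fold changes against NMO_Bl_mono were -1.85 for Nfkbia, -2.76 for Nfkbiz and -4.20 for Tnfaip3, and all 3 calls held. The pools are the replicates, and the p-values set a difference between groups against the spread between these libraries. The fit takes the libraries as independent, and no source used here says whether pools with the same number were prepared together.

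The sorted identity was checked against 12 monocyte markers. Their summed level was between 5701 and 7171 CPM in Nor_Bl_mono, between 3594 and 7832 CPM in NMO_Bl_mono and between 5123 and 9134 CPM in NMO_Br_mono. All 12 markers had counts in every library except NMO_Bl_mono replicate 3, where Cd14 and Fcgr1 were at 0. Ly6c2, which encodes the antigen used to sort the cells, was between 462 and 933 CPM in blood and between 59.4 and 437 CPM in brain. The brain libraries thus carried less of this transcript than any blood library, but most other markers did not share this. Of the 12 markers, 6 had all brain libraries above those of NMO_Bl_mono, and Ly6c2 was the 1 with all below. Among all genes 6.3% lay above and 6.05% below. Against Nor_Bl_mono 4 of the 12 markers lay above and 3 below, namely Ly6c2, F13a1 and Cybb, beside 6.07% and 9.37% of all genes.

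**Figure D1:**
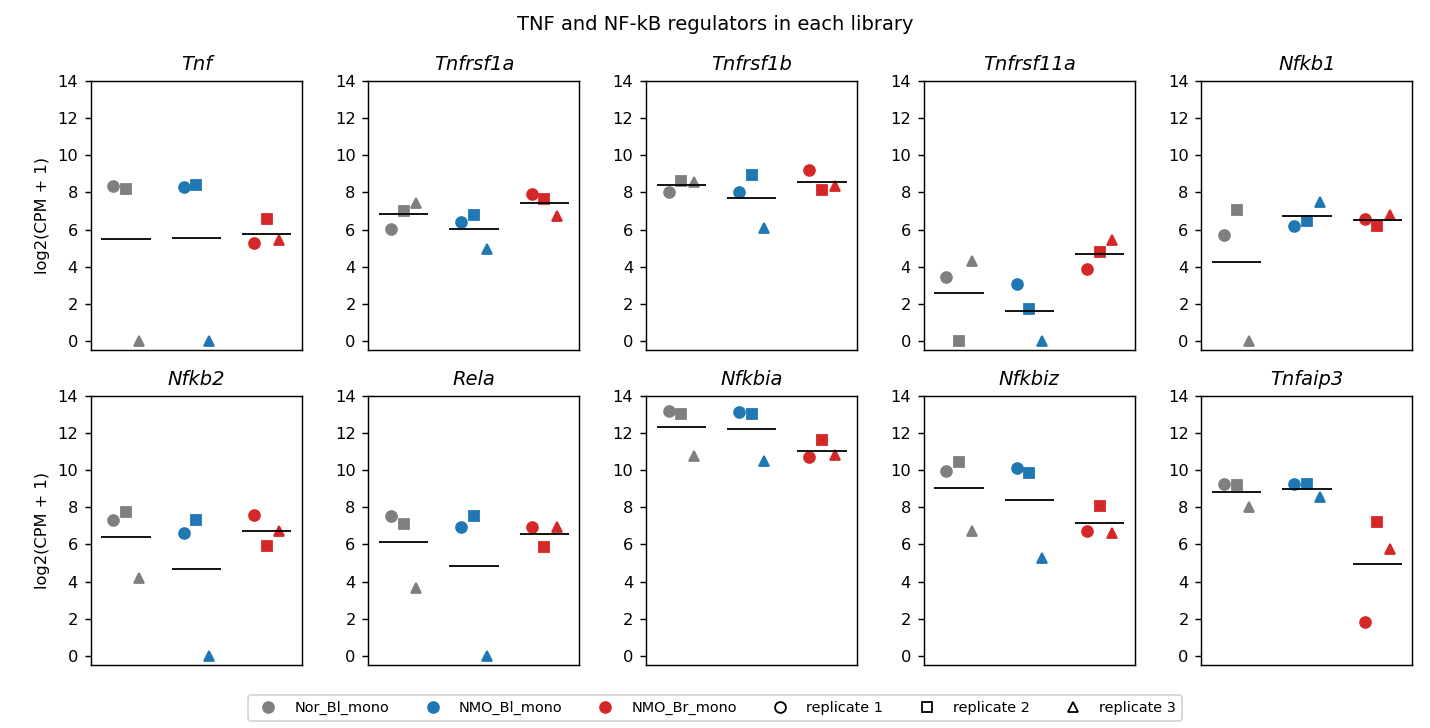
Level of each of the 10 genes in every library, as log2(CPM + 1), with one panel per gene, color for the group, symbol shape for the replicate number and a black line at the mean of the 3 plotted values. The 3 brain libraries of Tnfaip3 lie below all 6 blood libraries, whereas for Nfkbia, Nfkbiz and Tnf the blood libraries of replicate 3 (triangles) lie within or below the range of the brain libraries.

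Tnf encodes the secreted cytokine that starts the pathway. Its level was 327, 288 and 0 CPM in the 3 Nor_Bl_mono libraries, 313, 339.9 and 0 CPM in NMO_Bl_mono, and 37.2, 93.7 and 43.0 CPM in NMO_Br_mono. The first 2 libraries of each blood group were thus above every brain library, and the third of each was below, so the groups overlapped. The means were 205 ± 179 CPM (SD, n = 3), 218 ± 189 CPM and 58.0 ± 31.1 CPM in the same order. In edgeR's quasi-likelihood test the log2 fold change of NMO_Br_mono against NMO_Bl_mono was -1.91 (SE 1.88, adjusted p = 1), with a 95% interval from -5.95 to 2.13. Without both blood libraries of replicate 3, in which Tnf was at 0, it was -2.48 (SE 0.46). Its sign turned under 1 of 21 alternative settings.

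None of the receptor genes was called. Tnfrsf1a, which encodes the death domain receptor TNFR1, was at 64.9, 127 and 172 CPM in Nor_Bl_mono, 83.1, 108 and 30.5 CPM in NMO_Bl_mono, and 242, 197 and 105 CPM in NMO_Br_mono. Replicates 1 and 2 of the brain were the highest of all 9 libraries, and replicate 3 of the brain fell within the range of the blood libraries. The log2 fold change of NMO_Br_mono against NMO_Bl_mono was 1.29 (SE 0.72, adjusted p = 0.841), and against Nor_Bl_mono it was 0.58 (SE 0.71).

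Tnfrsf1b, which encodes TNFR2, the receptor without a death domain, was at 263, 397 and 380.4 CPM in Nor_Bl_mono, 258, 498 and 66.9 CPM in NMO_Bl_mono, and 583, 276 and 319 CPM in NMO_Br_mono. All 3 groups overlapped. The difference of NMO_Br_mono against NMO_Bl_mono was 0.52 on the log2 scale (SE 0.60), with a 95% interval from -0.78 to 1.81.

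Tnfrsf11a, which encodes RANK, the receptor for RANK ligand, was the lowest in counts of the receptor genes. It was at 9.93, 0 and 18.7 CPM in Nor_Bl_mono, at 7.42, 2.29 and 0 CPM in NMO_Bl_mono, and at 13.6, 26.9 and 43.1 CPM in NMO_Br_mono. The brain libraries were above all 3 NMO_Bl_mono libraries, a separation shown by 6.3% of all genes tested in that direction, but not above all Nor_Bl_mono libraries. The mean was 8.61-fold higher in NMO_Br_mono than in NMO_Bl_mono, and the log2 fold change of 3.10 had an SE of 2.85 and an adjusted p of 1. Its 95% interval ran from -3.01 to 9.22. Against Nor_Bl_mono the log2 fold change was 1.54 (SE 2.69).

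The subunit genes showed no difference beyond their spread. Nfkb1, which encodes p105 and its product p50, was at 52.1, 133 and 0 CPM in Nor_Bl_mono, 71.3, 87.5 and 178 CPM in NMO_Bl_mono, and 93.4, 71.3 and 109.5 CPM in NMO_Br_mono. The difference of NMO_Br_mono against NMO_Bl_mono was -0.29 on the log2 scale (SE 1.39), with a 95% interval from -3.28 to 2.69.

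Nfkb2, which encodes p100 and p52 of the alternative pathway, was at 156, 214 and 17.0 CPM in Nor_Bl_mono, 98.2, 160.1 and 0 CPM in NMO_Bl_mono, and 192, 58.6 and 104 CPM in NMO_Br_mono. Both blood libraries of replicate 3 were the lowest. The log2 difference of NMO_Br_mono against NMO_Bl_mono was 0.46 (SE 1.45), and its 95% interval was from -2.66 to 3.58. Nfkb2 shares exon bases with Psd and AC114539.1 on the opposite strand in the mouse annotation, and whether the counting used strand is not given in the sources used here.

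Rela encodes RelA (p65), the transactivating subunit of the usual dimer. Its levels were 187, 136 and 11.7 CPM in Nor_Bl_mono, 121, 187 and 0 CPM in NMO_Bl_mono, and 121, 57.2 and 122 CPM in NMO_Br_mono. With means of 112 ± 90.2, 103 ± 94.8 and 100.1 ± 37.2 CPM (SD, n = 3) the groups lay close together, and the log2 difference of NMO_Br_mono against NMO_Bl_mono was -0.04 (SE 1.48, 95% interval from -3.21 to 3.13). The interval of each subunit gene reaches past 3 on the log2 scale in at least 1 direction, so moderate changes were not detectable in these libraries.

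Nfkbia encodes IkBa, which holds NF-kB dimers in the cytoplasm. It was at 9311, 8189 and 1737 CPM in Nor_Bl_mono, 9081, 8252 and 1417 CPM in NMO_Bl_mono, and 1656, 3124 and 1783 CPM in NMO_Br_mono. Replicates 1 and 2 of both blood groups lay far above the brain libraries, and replicate 3 of both blood groups lay at the level of the brain. The log2 fold change of NMO_Br_mono against NMO_Bl_mono was -1.51 (SE 0.61), with an unadjusted p of 0.0260 in edgeR and an adjusted p of 0.802. Against Nor_Bl_mono it was -1.55 (SE 0.61, adjusted p = 0.708). Without both blood libraries of replicate 3 the first value was -1.98 (SE 0.29). The unadjusted call was lost without NMO_Bl_mono replicate 1, where the log2 fold change was -1.15, without NMO_Br_mono replicate 1 (-1.35), without NMO_Br_mono replicate 3 (-1.38), with at least 10 counts asked of every library of 1 group (-1.48) and with limma-voom. The variance trend of limma-voom fell below 0 within the range of the counts of Nfkbia, so its loss of the call says little.

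Nfkbiz encodes IkBz, a nuclear IkB protein that acts on a subset of NF-kB target genes. It was at 978, 1394 and 106 CPM in Nor_Bl_mono, 1097, 924 and 37.0 CPM in NMO_Bl_mono, and 104, 271 and 97.1 CPM in NMO_Br_mono. As with Nfkbia, the first 2 libraries of each blood group were above all brain libraries and the third was not. The log2 fold change of NMO_Br_mono against NMO_Bl_mono was -2.12 (SE 0.97), with an unadjusted p of 0.0466 in edgeR and an adjusted p of 0.802. Against Nor_Bl_mono it was -2.39 (SE 0.98, adjusted p = 0.708). Leaving out both blood libraries of replicate 3 gave -2.67 (SE 0.46). The unadjusted call was lost without NMO_Bl_mono replicate 1 (-1.61) or replicate 2 (-1.84), and without NMO_Br_mono replicate 1 (-1.90) or replicate 3 (-1.86). With 6 other settings it was lost as well, among them RLE factors (-1.96).

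Tnfaip3 encodes A20, a ubiquitin-editing enzyme that shuts off signaling at the receptor complex. It was at 599.6, 586 and 261 CPM in Nor_Bl_mono, 599, 608 and 369 CPM in NMO_Bl_mono, and 2.60, 146 and 53.7 CPM in NMO_Br_mono. These brain values rest on 23, 1532 and 540 counts. Every brain library was below every blood library, and the blood libraries of replicate 3, although the lowest of their groups, were still above the brain. The means were 482 ± 192 CPM (SD, n = 3) in Nor_Bl_mono, 525 ± 135 CPM in NMO_Bl_mono and 67.3 ± 72.5 CPM in NMO_Br_mono.

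In edgeR's test the log2 fold change of Tnfaip3 in NMO_Br_mono against NMO_Bl_mono was -2.96 (SE 0.92, 95% interval from -4.93 to -0.99). The unadjusted p was 0.00613, rank 116 of the 10107 genes tested, and the adjusted p was 0.534. Against Nor_Bl_mono the log2 fold change was -2.84 (SE 0.91, adjusted p = 0.561), and against the mean of both blood groups it was -2.90 (SE 0.86, adjusted p = 0.309). Without both blood libraries of replicate 3 the first value was -3.15 (SE 1.06). The brain libraries spread widely, and the value was -2.40 without NMO_Br_mono replicate 1 and -4.20 without NMO_Br_mono replicate 2. With limma-voom it was -5.25. It passed the unadjusted threshold under every alternative run in each of the 3 comparisons of brain with blood.

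**Figure D2:**
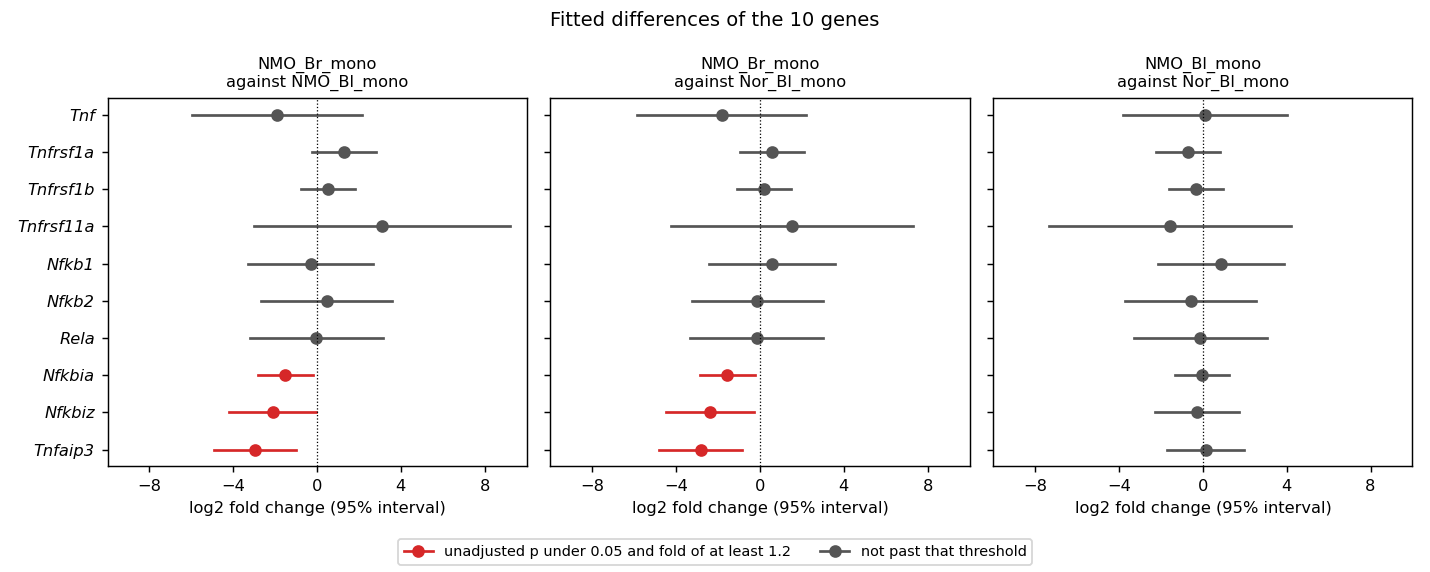
Fitted log2 fold change (points) and 95% interval (bars) of the 10 genes in 3 comparisons, with red for genes past the unadjusted threshold. Nfkbia, Nfkbiz and Tnfaip3 lie below 0 in both comparisons of brain with blood, and in NMO_Bl_mono against Nor_Bl_mono all 10 intervals span 0.

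Set against all genes, the count of members was as follows. The members were chosen with earlier results of these data known, so the counts are a description and no test of the set. In NMO_Br_mono against NMO_Bl_mono 0 members were called higher and 3 lower at the unadjusted threshold, where 1.48% of all genes tested were called higher and 3.84% lower. No member had an adjusted p under 0.05 in edgeR, a threshold passed by 0.247% of all genes, and DESeq2 and limma-voom also gave 0 members. Tnfaip3 was the only member with all brain libraries below those of NMO_Bl_mono, as were 6.05% of all genes. The median log2 fold change of the 10 members was -0.16, and that of all genes tested was 0.05.

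The comparison of NMO_Br_mono with Nor_Bl_mono uses the same brain libraries, so its counts are no independent repeat. Again 0 members were called higher and 3 lower, beside 1.75% and 4.07% of all genes, and none passed an adjusted p under 0.05, beside 0.247% of all genes. Only Tnfaip3 had groups apart, in the lower direction, beside 9.37% of all genes below and 6.07% above. Against the mean of both blood groups the members called were also Nfkbia, Nfkbiz and Tnfaip3, all lower, where 2.62% of all genes were called higher and 4.26% lower, and none passed an adjusted p under 0.05 in edgeR, beside 0.435% of all genes. DESeq2 called Tnfaip3 there with an adjusted p of 0.0155, within a range from 1.16e-05 to 0.716 over the 20 alternatives. Tnfaip3 lay below all 6 blood libraries, as did 3.13% of all genes, while 3.57% lay above.

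Between the blood groups, which addresses whether blood monocytes differed after the injection, no member was called by edgeR or DESeq2 at either threshold. With limma-voom Nfkbia alone was called, at the unadjusted threshold (0.83 on the log2 scale). The variance trend of that fit fell below 0 within the range of the counts of Nfkbia, which limits this call. At the unadjusted threshold 0.712% of all genes were called, and 0% passed an adjusted p under 0.05. The fitted log2 fold changes of NMO_Bl_mono against Nor_Bl_mono were 0.12 (SE 0.85) for Tnfaip3, -0.04 (SE 0.59) for Nfkbia and -0.27 (SE 0.93) for Nfkbiz. The 95% interval for Nfkbia ran from -1.31 to 1.24, which takes in a doubling and a halving. Replicates 1 and 2 alone were close between the groups for Nfkbia and Tnfaip3, with blood values of 8189 to 9311 CPM and 586 to 608 CPM, respectively.

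**Figure D3:**
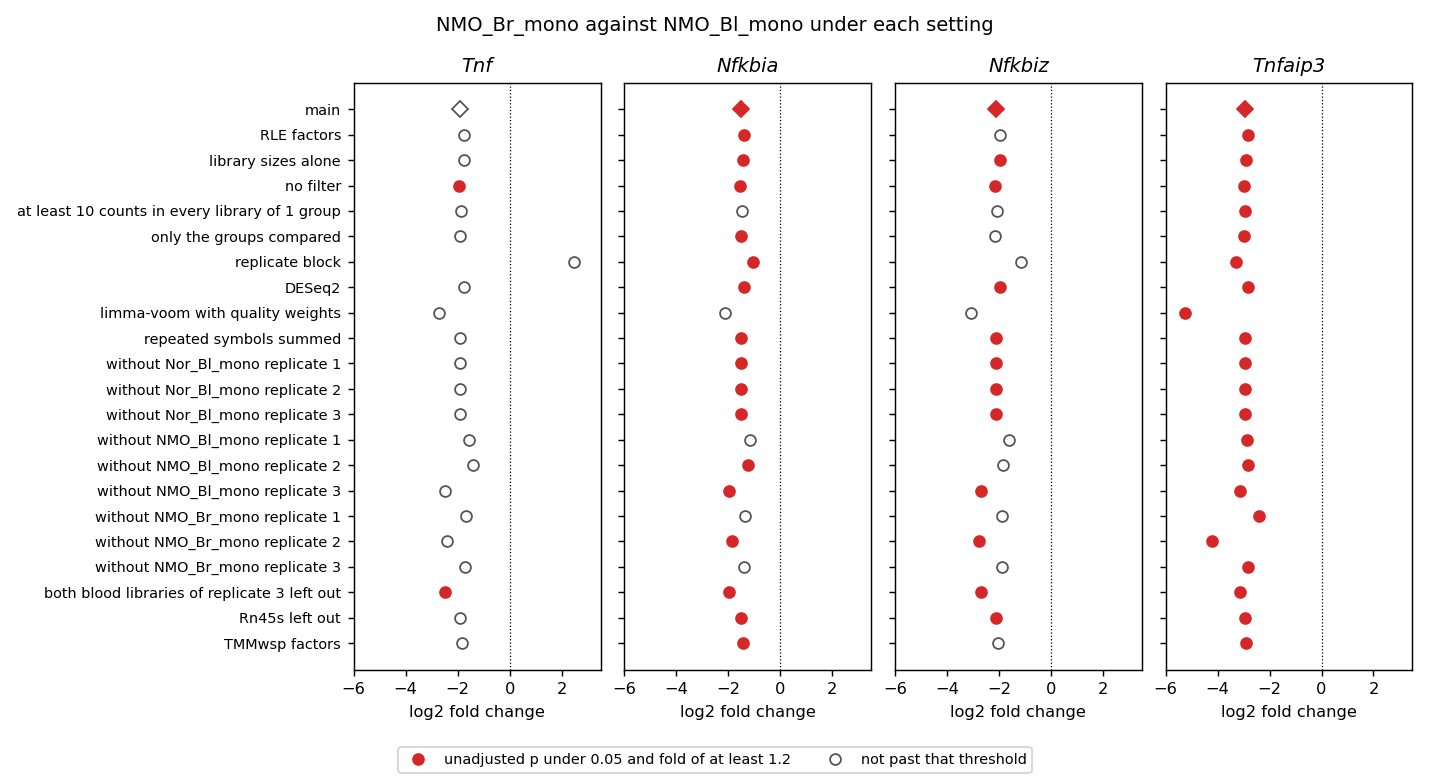
Log2 fold change of Tnf, Nfkbia, Nfkbiz and Tnfaip3 in NMO_Br_mono against NMO_Bl_mono under the reported setting (diamond) and 21 alternatives (circles), filled red where the unadjusted threshold was passed. Tnfaip3 is filled throughout, Nfkbia and Nfkbiz stay below 0 but lose the call under several alternatives, and Tnf lies above 0 under 1 alternative.

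Markers of other cells moved between the same groups. The 12 lymphocyte and NK markers summed to between 1865 and 2445 CPM in Nor_Bl_mono, between 2081 and 2515 CPM in NMO_Bl_mono and between 43.5 and 277 CPM in NMO_Br_mono, with Gzma and Nkg7 as the largest blood components. The 10 platelet and erythroid markers summed to between 1429.5 and 7116 CPM in Nor_Bl_mono, between 2421 and 7644 CPM in NMO_Bl_mono and between 40.4 and 425 CPM in NMO_Br_mono. Both lists were thus lower in every brain library than in any blood library, as Tnfaip3 was. In bulk samples such as these, fewer cells of a type and less RNA per cell cannot be told apart.

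The microglia list ran the other way, between 143 and 396 CPM in Nor_Bl_mono, between 0.0909 and 244 CPM in NMO_Bl_mono and between 838 and 1072 CPM in NMO_Br_mono. Of its 12 markers, between 1 and 3 were at 0 in a brain library and between 7 and 11 in a blood library. Cx3cr1, which Ly6C-low monocytes also express, made up most of the sum in blood. Of the neutrophil list 11 markers were measured, and they summed to at most 317 CPM in blood and to between 444 and 1822 CPM in brain, where 3 to 5 of them were at 0. S100a8 and S100a9, which monocytes also express, were the largest components in brain, at 813 and 659.5 CPM in replicate 2. Ngp was at 57.8, 245 and 102 CPM in brain and at most 27.5 CPM in blood. In brain Camp was at 85.0, 0 and 49.3 CPM, Elane at 0, 31.7 and 20.6 CPM, and Ltf at 9.61, 0 and 11.3 CPM. In blood they were at most 24.6, 2.73 and 0 CPM, respectively. Of 8 neutrophil markers tested, 6 were fitted higher in NMO_Br_mono than in NMO_Bl_mono and 2 lower, beside 5193 and 4910 of all 10107 genes. Retnlg ran the other way, at 0 in all brain libraries and up to 125 CPM in blood. Markers of other brain cells summed to between 5.62 and 122 CPM in all libraries, with Aqp4 and Mog at 0 throughout. Cldn5 was at 33.0, 0 and 60.0 CPM in brain and at 0 in blood, and Gfap had counts only in brain replicate 3 (13.1 CPM). Aldh1l1 and Snap25 had counts only in blood, at most 3.16 and 5.33 CPM, respectively. The part of any of these cells in the lower counts of Nfkbia, Nfkbiz and Tnfaip3 was not tested. Nor was their part in the higher counts of other genes in brain.

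The 12 genes of dissociation and early response, which rise when tissue is handled and which, like Nfkbia and Tnfaip3, can be induced within minutes, summed to between 1902 and 9592 CPM in Nor_Bl_mono, between 1263 and 6461 CPM in NMO_Bl_mono and between 6137 and 13202 CPM in NMO_Br_mono. Within each blood group the sum was highest in replicate 1 and lowest in replicate 3, the library in which Nfkbia, Nfkbiz and Tnf were also lowest. The brain sums had the same order, at 13202, 7371 and 6137 CPM in replicates 1, 2 and 3. In brain Nfkbia, Nfkbiz and Tnf were all highest in replicate 2. The heat shock genes Hspa1a and Hspa1b took a large share of the brain sums. Hspa1a was at 4112, 1051 and 566 CPM and Hspa1b at 4239, 1051 and 380.4 CPM in replicates 1, 2 and 3. The order of the brain sums was thus the order of these heat shock genes, and the other genes of the list were not summed apart. Whether handling has a part in the member values was not tested.

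**Figure D4:**
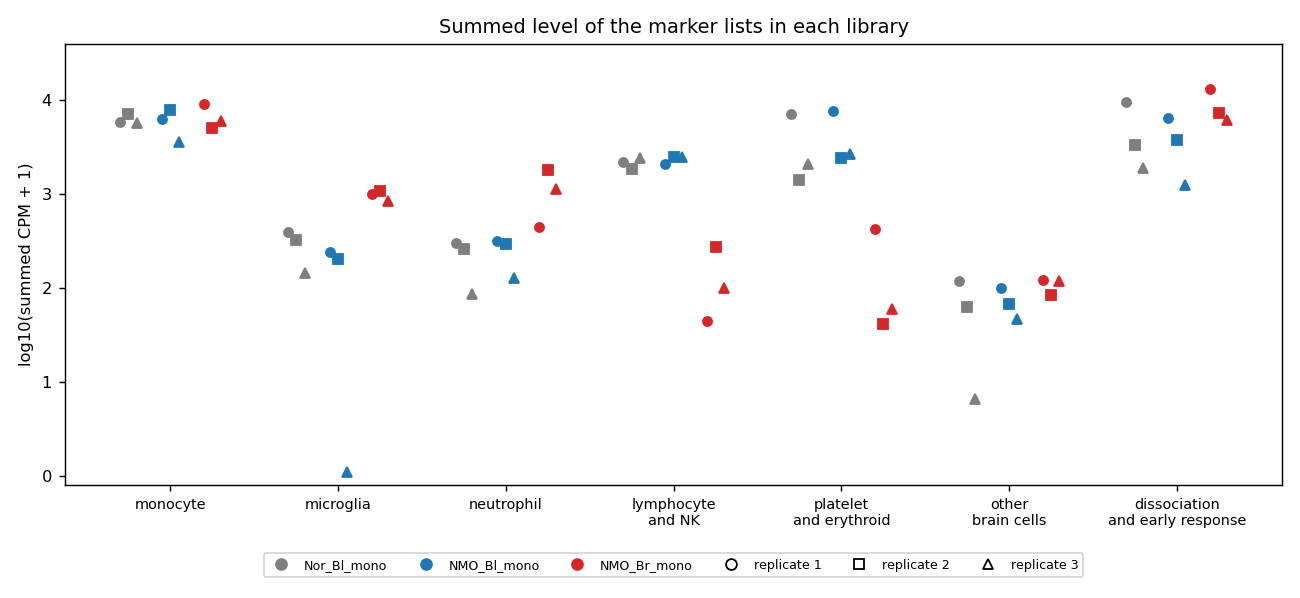
Summed level of 7 marker lists in each library, as log10(summed CPM + 1), with color for the group and symbol shape for the replicate number. The lymphocyte and NK list and the platelet and erythroid list lie lower in all 3 brain libraries than in any blood library, and the microglia and neutrophil lists lie higher.

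Beyond the 10 members, 138 other genes of the pathway were listed in 9 groups by role, and 114 of them were tested. These lists were also written with earlier results of these data known, so their counts are a description. In NMO_Br_mono against NMO_Bl_mono 6 were called higher and 8 lower at the unadjusted threshold, together 12.3% of those tested beside 5.32% of all genes, and 1 had an adjusted p under 0.05, beside 0.247% of all genes. The median log2 fold change of the 114 genes was -0.13, beside 0.05 for all genes. The count of 14 called fell to 8 without NMO_Br_mono replicate 1 and to 7 without NMO_Br_mono replicate 3, and it was 21 without both blood libraries of replicate 3. Between the blood groups 2 of the 114 were called, Ccl2 and Cd44, both lower in NMO_Bl_mono, beside 0.712% of all genes, and 0 had an adjusted p under 0.05.

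In the lists of receptor-proximal adaptors, the IKK complex and the cell death arm no gene was called, where 5.32% of all genes were. These lists are short, and whether they held fewer calls than all genes was not tested. Other pathway genes that act between receptor and nucleus, such as Nfkbib, were called and are described below. None of 17 receptor-proximal adaptors and ubiquitin ligases (median log2 fold change -0.48), none of 7 genes of the IKK complex (median -0.41) and none of 10 genes of the cell death arm (median 0.42) passed the unadjusted threshold in edgeR for NMO_Br_mono against NMO_Bl_mono, and none had an adjusted p under 0.05. All 3 brain libraries lay below those of NMO_Bl_mono for 3 of the 17 adaptor genes and 1 of the 7 IKK genes, and above them for 1 of the 10 cell death genes, beside 6.05% and 6.3% of all genes. The same 3 lists had no call against the mean of both blood groups.

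Among the other Rel and IkB family genes 1 of 6 was called. Nfkbib, which encodes IkBb, was at 571, 459 and 69.7 CPM in Nor_Bl_mono, 529, 424 and 121 CPM in NMO_Bl_mono, and 65.5, 211 and 57.9 CPM in NMO_Br_mono. Its pattern over the libraries was that of Nfkbia, with replicates 1 and 2 of blood high and replicate 3 of blood low. The log2 fold change was -1.68 (SE 0.78, adjusted p = 0.802).

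The other 5 were Rel, Relb, Nfkbie, Nfkbid and Bcl3, and their groups overlapped. Rel, which encodes the subunit c-Rel, was at 149, 223 and 82.5 CPM in Nor_Bl_mono, 118, 49.0 and 0 CPM in NMO_Bl_mono, and 40.5, 1.81 and 99.1 CPM in NMO_Br_mono. Relb, the partner of p52, ranged from 0 to 95.6 CPM over the 6 blood libraries and from 27.7 to 60.5 CPM in brain. Nfkbie ranged from 0 to 269 CPM in blood and from 30.6 to 193 CPM in brain, and Nfkbid from 6.45 to 157 CPM and from 24.5 to 135 CPM, respectively. Bcl3, an atypical IkB protein of the nucleus, was at 19.6 to 114 CPM in blood and at 45.8 to 151 CPM in brain.

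Among deubiquitinases and other inhibitors, the group nearest to Tnfaip3 in role, 0 of 15 genes were called higher and 2 lower (median -0.54). Tnip3, which encodes an A20-binding inhibitor, was at 31.6, 34.9 and 0 CPM in Nor_Bl_mono and 20.2, 47.8 and 0 CPM in NMO_Bl_mono, and had no count in the brain libraries. In mean level, against a floor of 3 counts per library, it was at least 73.6-fold lower in NMO_Br_mono than in NMO_Bl_mono. The replicate 3 blood libraries were also at 0, however, and its adjusted p in edgeR was 0.802. Otud7b, a deubiquitinase of the alternative pathway, was at 114, 52.5 and 0.307 CPM in Nor_Bl_mono, 142, 44.8 and 44.0 CPM in NMO_Bl_mono, and 7.92, 0.666 and 0.199 CPM in NMO_Br_mono. Its log2 fold change against NMO_Bl_mono was -4.71 (SE 1.96, adjusted p = 0.802).

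Of the ligands and receptors of the TNF superfamily other than the members, 7 of 16 and 14 of 23 passed the filter on low counts. In NMO_Br_mono against NMO_Bl_mono 1 ligand and 2 receptors were called, all lower. Fasl, the ligand of Fas made by cytotoxic lymphocytes, had no count in the brain libraries and was at 16.1, 43.9 and 22.6 CPM in Nor_Bl_mono and 29.8, 23.9 and 0 CPM in NMO_Bl_mono. Relative to the mean of both blood groups its mean level was at least 73.8-fold lower in brain, with an adjusted p of 0.541 in edgeR. Cd27, a costimulatory receptor of lymphocytes, was also without a count in brain and had 0, 12.7 and 0 CPM in Nor_Bl_mono and 5.46, 6.31 and 78.7 CPM in NMO_Bl_mono. The third called gene, Tnfrsf18, had 1 count in the brain libraries together. All of these are known from T and NK cells, and the lymphocyte and NK marker sum was lower in the same brain libraries, whose part in these values was not tested.

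Genes of TNF shedding and mRNA control were called in 2 of 12 cases, both higher. Timp3, an inhibitor of the TNF-releasing protease ADAM17, was at 56.1, 13.3 and 173 CPM in NMO_Br_mono, at 0, 1.31 and 0 CPM in NMO_Bl_mono and without a count in Nor_Bl_mono. In mean level, against a floor of 3 counts per library, it was at least 229.9-fold higher in NMO_Br_mono than in Nor_Bl_mono. This bound does not hold for each brain library. Against NMO_Bl_mono its adjusted p in edgeR was 0.802. Zfp36l1, which encodes an mRNA decay factor of the tristetraprolin family, was at 335, 546 and 369.7 CPM in NMO_Br_mono, above all blood libraries, which lay between 31.8 and 254 CPM. Its log2 fold change against NMO_Bl_mono was 1.46 (SE 0.67, adjusted p = 0.802). Zfp36l2, of the same family, was at 249.9, 629 and 225 CPM in NMO_Br_mono and between 569.7 and 750.0 CPM in blood. It was called lower against the mean of both blood groups, by -0.84 on the log2 scale (SE 0.37, adjusted p = 0.618).

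The listed NF-kB target genes were called in both directions, 4 higher and 2 lower of 26 tested (median 0.40). Ccl2, a chemokine that draws monocytes, was at 485, 474 and 483 CPM in the brain libraries, at 29.3, 15.9 and 71.6 CPM in Nor_Bl_mono and at 8.12, 8.60 and 0 CPM in NMO_Bl_mono. The log2 fold change was 6.43 against NMO_Bl_mono (SE 1.35, adjusted p = 0.0848) and 5.03 against the mean of both blood groups (SE 0.95, adjusted p = 0.0347). Every difference of brain from blood, also that of Tnfaip3, lies in these same brain libraries, and a link between Ccl2 and Tnfaip3 was not tested. The microglia and neutrophil sums were higher in these libraries as well, and their part in the Ccl2 value was not tested.

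Ccl5, a chemokine made by T cells, NK cells and platelets as well as by monocytes, fell by 3.93 on the log2 scale in NMO_Br_mono against NMO_Bl_mono (SE 0.57, adjusted p = 0.0103). It was at 1939, 1191 and 1178 CPM in Nor_Bl_mono, 1560.3, 1508 and 1397 CPM in NMO_Bl_mono, and 21.3, 130.1 and 141 CPM in NMO_Br_mono. The lymphocyte and NK sum and the platelet and erythroid sum given above were lower in these brain libraries as well, and their part in the Ccl5 value was not tested.

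The other target genes called did not pass the adjusted threshold. Il1rn, which encodes the interleukin-1 receptor antagonist, was at 359, 225 and 139 CPM in NMO_Br_mono and at most 37.0 CPM in any blood library, a log2 fold change of 4.59 against NMO_Bl_mono (SE 1.73, adjusted p = 0.802). Il1b, the cytokine that this antagonist opposes, was at 1595, 1515 and 961 CPM in brain and at most 306 CPM in blood, and was called only against the mean of both blood groups (3.51, SE 1.36, adjusted p = 0.618) and against Nor_Bl_mono. Ier3, an early response gene, was at 369.7, 157 and 294 CPM in brain and at most 134 CPM in blood, with a log2 fold change of 1.72 against NMO_Bl_mono (SE 0.75, adjusted p = 0.802). Cd44, an adhesion receptor, was at 1021, 1099.8 and 1149.7 CPM in brain whereas NMO_Bl_mono had 571, 709 and 485 CPM. The log2 fold change between them was 0.89 (SE 0.30, adjusted p = 0.716). In Nor_Bl_mono it was at 739, 1024 and 1015 CPM, so that the brain range overlapped with that of untreated mice. Cxcl1, a neutrophil chemokine, had 1 count in the 3 brain libraries together, and was at 137, 111 and 0 CPM in Nor_Bl_mono and 49.0, 46.8 and 0 CPM in NMO_Bl_mono.

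**Figure D5:**
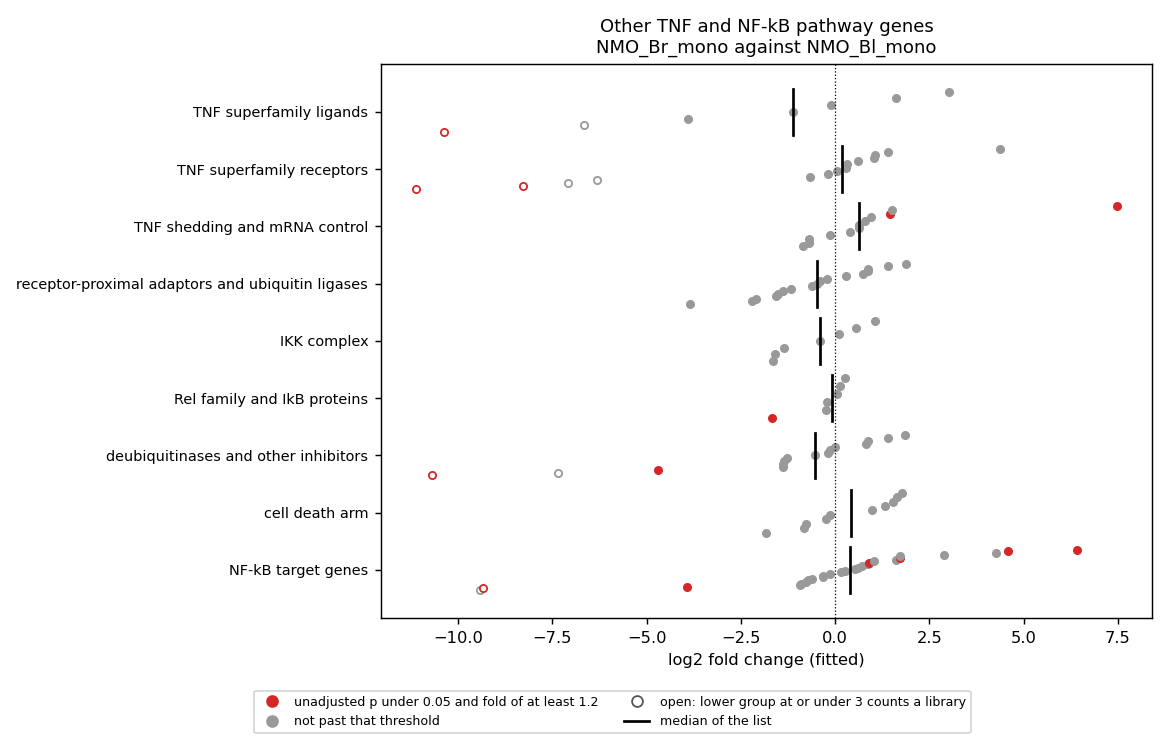
Fitted log2 fold change in NMO_Br_mono against NMO_Bl_mono of the 114 other pathway genes tested, 1 point per gene and 1 line of points per list, with red for genes past the unadjusted threshold and a black bar at the median of the list. Open symbols mark genes whose mean in the lower group was at or under the floor of 3 counts in a library, so that their fitted values are no estimate of size, and the adaptor, IKK and cell death lists hold no red point.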

How the data were processed

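The data are QuantSeq 3ʹ read counts of sorted monocytes in 9 libraries, 3 per group, with groups taken from the sample labels. The authors aligned reads with Bowtie2 (mm10, per the labels), counted unique and multiple alignments with Bedtools, and deposited raw counts per gene symbol. Versions, annotation and strand setting are not given in the sources used here. Reads shared by near-identical genes make such genes uncertain. Of 23282 entries, 35 symbols were listed more than once, and for these only the entry with the highest total entered. That left 23238 symbols, among them 8796 without any count, and filterByExpr kept 10107.

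All 9 libraries entered 1 fit in edgeR 4.0.16 (R 4.3.3; TMM factors, glmQLFit, glmQLFTest, Benjamini-Hochberg adjustment over all genes tested, group as the only term). Calls used an adjusted p under 0.05 or, after the study, an unadjusted p under 0.05 and a 1.2-fold difference. SEs are the absolute log2 fold change over the square root of F. Comparisons share libraries. Folds of mean CPM are given beside fitted values. Floors and bounds cover counting error only. The common dispersion was 2.87.

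The 10 members, the pathway and marker lists and the tests were chosen with earlier results of these data known. Named pathway genes are up to 10 per direction with the smallest unadjusted p among those called with at least 20 CPM in the higher group, in NMO_Br_mono against NMO_Bl_mono or against the mean of both blood groups, plus the other Rel and IkB genes. Tnfrsf18 was named after its values were seen. Ly6g, listed as a neutrophil marker, was not analysed here. Alternatives were RLE factors, library sizes alone, no filter, at least 10 counts in every library of 1 group, only the groups compared, a replicate block, DESeq2 1.42.0, limma-voom (limma 3.58.1) with quality weights, repeated symbols summed and each library left out. Leaving out both blood libraries of replicate 3, leaving out Rn45s and TMMwsp factors were added after seeing the data. The fits were checked on simulated data. No 2 libraries held identical values. Gene positions and overlaps are from GENCODE release M21 (GRCm38).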

Additional observations from a re-analysis of the deposited data

How the results depend on the processing

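A count of 3 corresponds to at most 0.432 CPM, but 22.3% of genes well detected in the rest of the group were at or under this floor in NMO_Bl_mono replicate 3, and pools spread widely. These limits were not ranked. Of the 830 log2 fold changes recomputed for the members, 725 kept their direction and side of the unadjusted threshold, 31 lost the call, 7 gained it and 67 turned sign, and the cause was not tested unless given. Tnfaip3 kept its call in every comparison of brain with blood under each alternative run. In NMO_Br_mono against NMO_Bl_mono the adjusted p ranged over the alternatives from 5.04e-05 to 1.00 for Tnfaip3 and from 1.08e-21 to 1 for Nfkbia. For Nfkbiz it ranged from 0.000501 to 1, and for Tnf from 0.104 to 1. The lowest values of Tnfaip3, Nfkbia and Nfkbiz came from the fit with no filter.

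The members at an adjusted p under 0.05 numbered 3 with no filter in NMO_Br_mono against NMO_Bl_mono, 3 against Nor_Bl_mono and 3 against the mean of both blood groups. Without both blood libraries of replicate 3 they numbered 1, 1 and 3 in the same order, as a description only since Tnf, Nfkbia and Nfkbiz were lowest in the libraries left out, and DESeq2 gave 1 in the last. At the unadjusted threshold the members called in NMO_Br_mono against NMO_Bl_mono and against Nor_Bl_mono fell to 1 each with at least 10 counts in every library of 1 group and to 1 each with limma-voom, which also called 1 between the blood groups. Leaving out 1 library gave between 1 and 3 members in each comparison of brain with blood. Other pathway genes called in NMO_Br_mono against NMO_Bl_mono numbered 9 with only the groups compared in the fit and between 7 and 15 without 1 library. Against Nor_Bl_mono they numbered 7 with at least 10 counts, 23 without both blood libraries of replicate 3 and between 7 and 18 without 1 library. Against the mean of both blood groups they numbered between 9 and 21 without 1 library, with 12 without Nor_Bl_mono replicate 1, 10 without NMO_Br_mono replicate 1 and 9 without NMO_Br_mono replicate 3. Between the blood groups they numbered 1 with RLE factors, 1 with library sizes alone, 0 with only the groups compared, 1 with the replicate block and between 0 and 2 without 1 library.

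Signs turned mostly for subunit genes near 0. In NMO_Br_mono against NMO_Bl_mono the log2 fold change of Rela was 0.10 with RLE factors and with DESeq2, 0.032 with library sizes alone, 0.012 with at least 10 counts and 0.060 with TMMwsp factors. For Rela it was 0.010 against Nor_Bl_mono with library sizes alone, and against the mean of both blood groups 0.027 with RLE factors and with DESeq2 and 0.021 with library sizes alone. Nfkb1 in NMO_Br_mono against NMO_Bl_mono was at 0.28 with limma-voom. Without both blood libraries of replicate 3 Nfkb1 was at 0.22 in that comparison, at -0.22 between the blood groups and at -0.0065 against Nor_Bl_mono, and Nfkb2 was at -0.12 against NMO_Bl_mono and -0.38 against the mean of both blood groups. Between the blood groups that omission gave 0.00024 for Tnfrsf1a and 0.20 for Tnfrsf1b, library sizes alone gave 0.061 for Nfkbia, and limma-voom gave 0.063 for Tnfrsf1b, 1.85 for Tnfrsf11a, 0.83 for Nfkbia, 0.13 for Nfkbiz and 0.24 for Rela. The limma-voom fit moved the median of all genes in NMO_Br_mono against NMO_Bl_mono from 0.05 to -0.65, and its variance trend fell below 0 within the range of the counts of Nfkbia, for which its SE was 29.69 in that comparison.

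Leaving out 1 library gave these ranges where a sign turned. In NMO_Br_mono against NMO_Bl_mono Rela ranged from -0.61 to 0.74, Nfkb1 from -0.53 to 0.22 and Nfkb2 from -0.12 to 1.28. Between the blood groups Nfkbia ranged from -0.48 to 0.44, Rela from -0.89 to 0.47, Nfkbiz from -0.79 to 0.34, Tnf from -0.50 to 0.67, Tnfaip3 from -0.17 to 0.33, Tnfrsf1b from -1.09 to 0.13 and Nfkb2 from -1.39 to 0.0044. Against Nor_Bl_mono Nfkb2 in brain ranged from -0.67 to 0.45, Rela from -0.68 to 0.43, Nfkb1 from -0.0061 to 1.81 and Tnfrsf1b from -0.22 to 0.40. Against the mean of both blood groups Rela ranged from -0.37 to 0.30, Nfkb1 from -0.14 to 0.76, Nfkb2 from -0.38 to 0.58 and Tnfrsf1b from -0.054 to 0.74.

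The labels give all groups the replicate numbers 1 to 3. Correlations of the deviations of libraries with the same number ranged from -0.0102 to 0.116 and 1 of 9 was over 0.1, so by the criterion that every pair be over 0.1 the numbers were not taken as pairs. Even so, the best match carried the same number in 6 of 6 cases between the blood groups and in 5 of 12 between brain and blood. Rn45s was highest in replicate 1 of each group, at 43.6%, 42.2% and 39.3%. This is a hint from the data and not from the design, and whether libraries of 1 number were prepared together is not given in the sources used here. With the replicate block 2 members were called in NMO_Br_mono against NMO_Bl_mono, 3 against Nor_Bl_mono and 2 against the mean of both blood groups. Nfkbiz was then not called in the first (-1.17) or the last (-1.37). The block gave Tnf a log2 fold change of 2.49, 2.57 and 2.53 and Rela one of 1.62, 1.25 and 1.43 in these comparisons, and Nfkb2 one of 1.07 against Nor_Bl_mono.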
